A study of Mus musculus with 14 samples.

Results

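Single mouse embryos made by somatic cell nuclear transfer (SCNT) and cultured with trichostatin A (TSA) alone were compared with SCNT embryos cultured without it, to ask which genes and gene functions differ at the two-cell stage when TSA is given without vitamin C (VC). The embryos were chosen by their titles: 3 TSA(0-8 h) embryos and 3 control embryos, of 14 embryos sequenced. Of 25650 RefSeq transcript entries in each embryo's file, the 4307 with at least 1 RPKM (reads scaled to transcript length and to the total reads counted) in at least 3 of these 6 embryos were compared, and they belong to 4003 genes with a symbol. All 6 embryos were made from B6D2F1 oocytes whose own chromosomes had been removed and which received a cumulus cell nucleus, and all were activated with strontium chloride in the presence of EGTA and cytochalasin B and cultured in mKSOM medium with deionized bovine serum albumin. The TSA(0-8 h) embryos were exposed to 50 nM TSA for the 8 h that follow the start of activation, and the control embryos to neither compound. Whether controls received the DMSO in which TSA was dissolved is not given in the sources used here. Embryos were taken at 28 h, which the labels count from nuclear transfer. The other 8 embryos received VC, which 5 of them combined with TSA, and they served here to look at the same transcripts in embryos that the comparison did not use. Each library was made from part of the RNA of 1 embryo, and the labels do not say which embryos came from the same nuclear transfer session or egg donor. The p-values therefore concern these embryos only. For single transcripts, those of the main test rest mainly on the spread typical of transcripts at a similar level. That spread can be wider or narrower than a transcript's own spread between embryos.

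TSA inhibits zinc-dependent histone deacetylases, the enzymes that remove acetyl groups from histone tails, and thereby raises histone acetylation. In a cloned embryo, the donor nucleus enters an egg that holds a store of maternal mRNA, and at the two-cell stage much of that store is degraded while the embryonic genome starts to be transcribed. The level of an mRNA at this stage can therefore reflect maternal RNA that is still present, new transcription from the donor genome, or both, and these sources cannot be told apart in total embryo RNA.

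The comparison turned on a few genes, and the stretches around the start sites of H2bc12, Omt2a and Omt2b are shown because H2bc12 had the largest decrease past the test and Omt2a and Omt2b are adjacent relatives that were both higher in most TSA embryos. The sequences are from RefSeq (GRCm38.p6), 300 bases each, running from 250 bases before to 50 bases after the annotated start, and are written 5′ to 3′ on the strand of the gene. H2bc12 lies at chr13:22035571-22035870 on the plus strand, Omt2a at chr9:78313999-78314298 on the minus strand and Omt2b at chr9:78327780-78328079 on the plus strand. Capitals mark the octamer ATTTGCAT and CCAAT, on either strand, in H2bc12, and the E-box CANNTG in the other two.
H2bc12: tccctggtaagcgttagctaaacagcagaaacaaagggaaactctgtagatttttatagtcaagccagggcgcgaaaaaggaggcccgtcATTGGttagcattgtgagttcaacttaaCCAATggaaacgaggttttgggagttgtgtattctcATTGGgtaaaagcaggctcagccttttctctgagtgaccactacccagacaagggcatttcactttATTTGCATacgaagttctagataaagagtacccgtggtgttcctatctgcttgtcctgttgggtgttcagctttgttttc
Omt2a: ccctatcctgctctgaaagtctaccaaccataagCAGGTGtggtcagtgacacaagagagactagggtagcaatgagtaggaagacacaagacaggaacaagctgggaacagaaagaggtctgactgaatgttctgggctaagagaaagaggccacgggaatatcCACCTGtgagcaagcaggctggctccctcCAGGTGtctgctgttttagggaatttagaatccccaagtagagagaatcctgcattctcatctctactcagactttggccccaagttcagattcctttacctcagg
Omt2b: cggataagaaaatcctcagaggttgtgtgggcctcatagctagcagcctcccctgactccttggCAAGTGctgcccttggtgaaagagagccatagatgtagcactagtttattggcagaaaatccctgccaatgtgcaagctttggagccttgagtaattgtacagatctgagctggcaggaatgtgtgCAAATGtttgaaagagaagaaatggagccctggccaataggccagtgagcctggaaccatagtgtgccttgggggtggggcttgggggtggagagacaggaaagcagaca
The H2bc12 stretch held the octamer 30 bases upstream of the start and CCAAT at 160, 132 and 96 bases upstream. The octamer was present in 1.74% of 32851 RefSeq promoters of the same length, searched on both strands, and in 7 of 15 promoters of H2B genes. CCAAT was present in 37.4% of all promoters and in 15 of the 15 H2B promoters. Omt2a held CANNTG at 216, 85 and 56 bases upstream and Omt2b at 186 and 60, a motif found in 72.3% of all promoters. Omt2b also held CCAAT at 139, 121 and 27 bases upstream, not capitalised here. These matches describe letters only.

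Between 3021540 and 13589389 reads were counted per embryo, as recovered from the steps between RPKM values, and 3 reads on a transcript of 1 kb corresponded to 0.221 to 0.993 RPKM. This floor covers counting error only. At 1 RPKM or more, 5197, 3819 and 5439 transcripts were detected in the control embryos and 4198, 3556 and 4249 in the TSA embryos. The means were 4818 ± 874 (SD, n = 3) and 4001 ± 386 (SD, n = 3), and the TSA mean was lower by 817 transcripts (difference -817). The groups overlapped, and the exact two-sided permutation p was 0.3, where 0.1 is the smallest that 3 against 3 embryos can give. Of 14 egg and early embryo markers, 6 to 9 were at 1 RPKM or more in each embryo, with summed levels of 989 to 2542 RPKM in controls and 1244 to 2516 RPKM in TSA embryos, while Khdc3 and H1f8 were listed at 0 in all 6. Of 26 markers of cumulus and granulosa cells, the type that gave the nuclei, 20 to 24 were listed at 0 and 0 to 2 reached 1 RPKM, with summed levels of 0.454 to 29.9 RPKM in controls and 0.305 to 145 RPKM in TSA embryos. Of 7 oviduct epithelium markers, 5 were listed at 0 in all 6 embryos. The other two, Epcam and Cdh1, made up sums of 102, 4.10 and 63.9 RPKM in controls and 2.50, 3.67 and 3.80 RPKM in TSA embryos, which did not overlap. Epcam alone overlapped, at 74.5, 0.0707 and 0.321 RPKM in controls and 1.45, 1.18 and 3.51 RPKM in TSA embryos. Cdh1 alone did not, at 27.4, 4.03 and 63.6 RPKM in controls and 1.05, 2.49 and 0.289 RPKM in TSA embryos. The part of these genes in other results was not tested.

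Single embryos of 1 group varied widely. The median within-group SD of log2(RPKM+1) over the 4307 transcripts was 2.33, and only 1071 (24.9%) were at 1 RPKM or more in all 6 embryos. The median log2 difference (TSA minus control) was -0.35, with 1846 transcripts (42.9%) above 0 and 2461 (57.1%) below. With median-ratio scaling in place of RPKM as deposited this median was -0.009, so that differences below are read relative to a shift of -0.35. That shift itself was -0.63 without control replicate 2 and -0.19 without control replicate 1 or 3. At a Benjamini-Hochberg adjusted p under 0.05 (limma), 2 transcripts rose with TSA (0.0464% of those tested) and 2 fell (0.0464%). Under median-ratio scaling the split was 2 higher and 1 lower. At an unadjusted p under 0.05, 114 were higher (2.65%) and 134 lower (3.11%). In 171 transcripts (3.97%) every TSA embryo was above every control embryo, and in 298 (6.92%) every TSA embryo was below every control embryo.

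**Figure D1:**
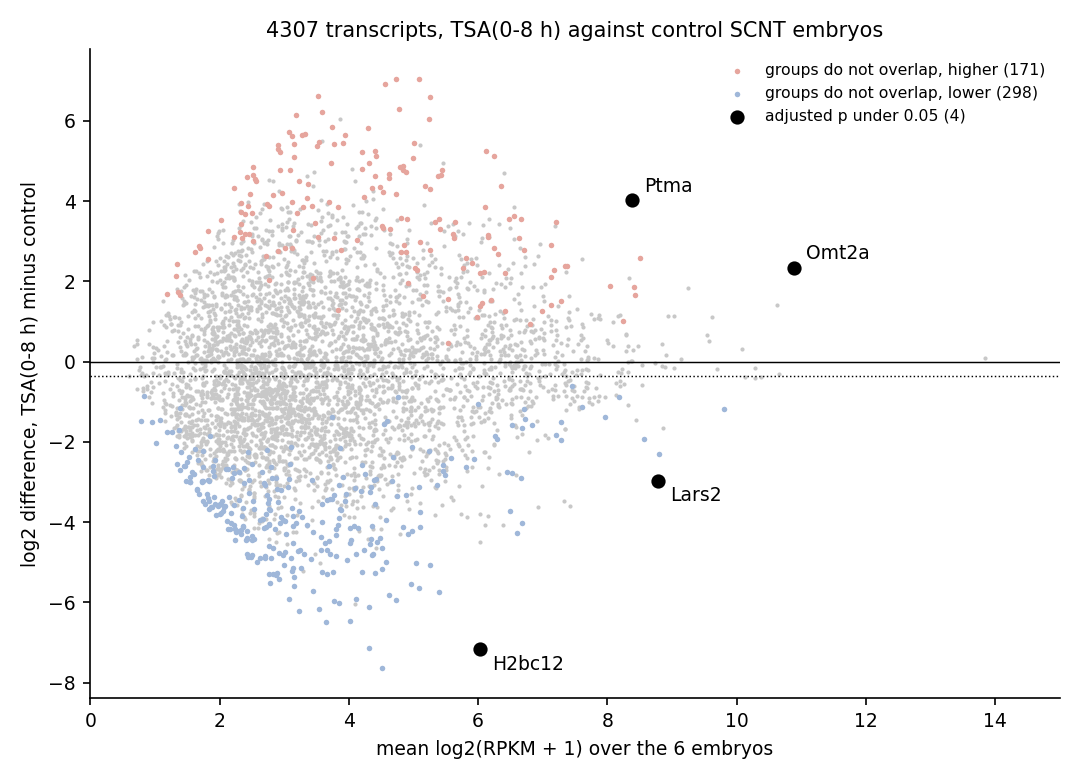
Each point is 1 of 4307 transcripts, with the mean log2(RPKM+1) over the 6 embryos on the x axis and the log2 difference, TSA(0-8 h) minus control, on the y axis. Pale red and pale blue points are the 171 and 298 transcripts whose groups do not overlap, black points are the 4 at an adjusted p under 0.05 (Omt2a, Ptma, Lars2 and H2bc12), the dotted line is the median of -0.35, and differences spread widest at intermediate levels.

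The 2 transcripts that rose came from Omt2a, a gene known for its mRNA in oocytes, and Ptma, which encodes prothymosin alpha, an acidic nuclear protein that binds histones. The 2 that fell came from H2bc12, which encodes a core histone H2B, and Lars2, the mitochondrial leucyl-tRNA synthetase. In mm9, all 4 are annotated as protein-coding genes, Omt2a at chr9:78159779-78162604 on the minus strand and, on the plus strand, Ptma at chr1:88423311-88427273, H2bc12 at chr13:22127690-22128168 and Lars2 at chr9:123276058-123371782. The calls depended on the settings: 0 transcripts passed in either direction with eBayes without a trend of the variance on the level, and 0 passed without the filter on low values.

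Omt2a (NM_001164523) was among the most abundant transcripts of these embryos. Control embryos held 341, 916 and 1885 RPKM and TSA embryos 6390, 4601 and 2600.5 RPKM, with means of 1047 ± 780 and 4530 ± 1896 RPKM (SD, n = 3). Every TSA embryo was above every control, although the highest control and the lowest TSA embryo, both replicate 3, lay close together. Omt2a rose by 2.34 on the log2 scale (SE 0.32, limma adjusted p = 8.96e-10). Control and TSA embryos with the same replicate number were sequenced in the same pool, and within the 3 pools the difference was 4.23, 2.33 and 0.46. The SE reflects the shared variance prior, since the gene's own within-group SD was 0.99, and the adjusted p was 0.914 with no trend, 0.249 in one fit of all 14 embryos and 0.627 with limma-voom on recovered reads.

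A second Omt2a entry and the neighbouring Omt2b varied in the same embryos. Omt2a NM_001111286 was at 533, 106 and 584 RPKM in controls and at 3988, 1625 and 230.3 RPKM in TSA embryos (log2 difference 1.83, SE 0.57, limma adjusted p = 0.277). Omt2b (NM_205822) was at 578, 533 and 2919 RPKM in controls and at 5029.6, 2008 and 1662 RPKM in TSA embryos (log2 difference 1.41, SE 0.35, limma adjusted p = 0.0528). In both, replicates 1 and 2 were higher with TSA and replicate 3 was lower, and the within-pool differences of Omt2b were 3.12, 1.91 and -0.81. Without control replicate 3 the Omt2b difference was 2.20 (limma adjusted p = 5.81e-06), without TSA replicate 2 it was 1.58 (0.0295) and without TSA replicate 3 it was 1.72 (0.0274). The second Omt2a entry passed without TSA replicate 3 (2.98, limma adjusted p = 0.000849). Omt2a and Omt2b are near-copies: 45.8% and 46.8% of the 50-base windows of their mRNAs that are in mm9 occur there at more than 1 place, so that the division of reads between them is uncertain. Of the 6 transcripts tested from the Omt2 and Oog families of oocyte genes, 1 rose, 4 were above 0 and 2 below, with a median of 0.93. Oog3, which encodes a leucine-rich repeat protein of oocytes, showed 165, 576 and 637 RPKM in controls and 639, 485 and 495 RPKM in TSA embryos (0.45, limma adjusted p = 0.969).

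Ptma (NM_008972) separated the groups more clearly. Control embryos held 39.9, 77.8 and 172 RPKM and TSA embryos 1549, 1684 and 927 RPKM, with means of 96.7 ± 68.3 and 1386 ± 404 RPKM (SD, n = 3). The lowest TSA embryo was above the highest control by far, and Ptma rose by 4.03 on the log2 scale (SE 0.77, limma adjusted p = 0.000322). Within the 3 pools the difference was 5.24, 4.42 and 2.42, and leaving out any 1 of the 6 embryos left the limma adjusted p at 6.74e-06 to 0.0331. With limma-voom on recovered reads the adjusted p was 0.548. Of its mRNA windows in mm9, 88.0% occur at more than 1 place, up to 8 places, and the reads cannot be assigned to 1 locus with certainty.

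Ptma was one of the list of histone chaperones, the proteins that carry histones to and from DNA. Of 22 transcripts tested, 1 rose (Ptma), 11 were above 0 and 11 below. At an unadjusted p under 0.05, 3 were higher (Ptma, Npm1 and Set) and 0 lower, beside 2.65% and 3.11% of all transcripts. The median was -0.10, beside -0.35 over all transcripts, and it became 0.099 with median-ratio scaling. Npm1 (NM_001252261), the nucleolar chaperone nucleophosmin, was at 0, 13.8 and 0.746 RPKM in controls and at 141, 3180.0 and 131 RPKM in TSA embryos. Every TSA embryo was above every control, with a log2 difference of 7.05 (SE 1.88, limma adjusted p = 0.13). When all 3 Npm1 entries were added, however, controls held 18.3, 1299 and 108 RPKM and TSA embryos 452, 3299 and 431 RPKM, so that control replicate 2 exceeded 2 of the TSA embryos. Of the Npm1 mRNA windows in mm9, 46.3% occur at more than 1 place. Set (NM_001204875), a chaperone that masks histone tails from acetyltransferases, was at 121, 13.6 and 7.16 RPKM in controls and at 389, 651 and 71.7 RPKM in TSA embryos (3.44, limma adjusted p = 0.784). Its other tested entry, NM_023871, differed by 2.35 (limma adjusted p = 0.93). Asf1b, a chaperone of histones H3 and H4, was at 196, 0.911 and 50.6 RPKM in controls and at 0.414, 0.32 and 2.93 RPKM in TSA embryos (-3.79, limma adjusted p = 0.93).

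**Figure D2:**
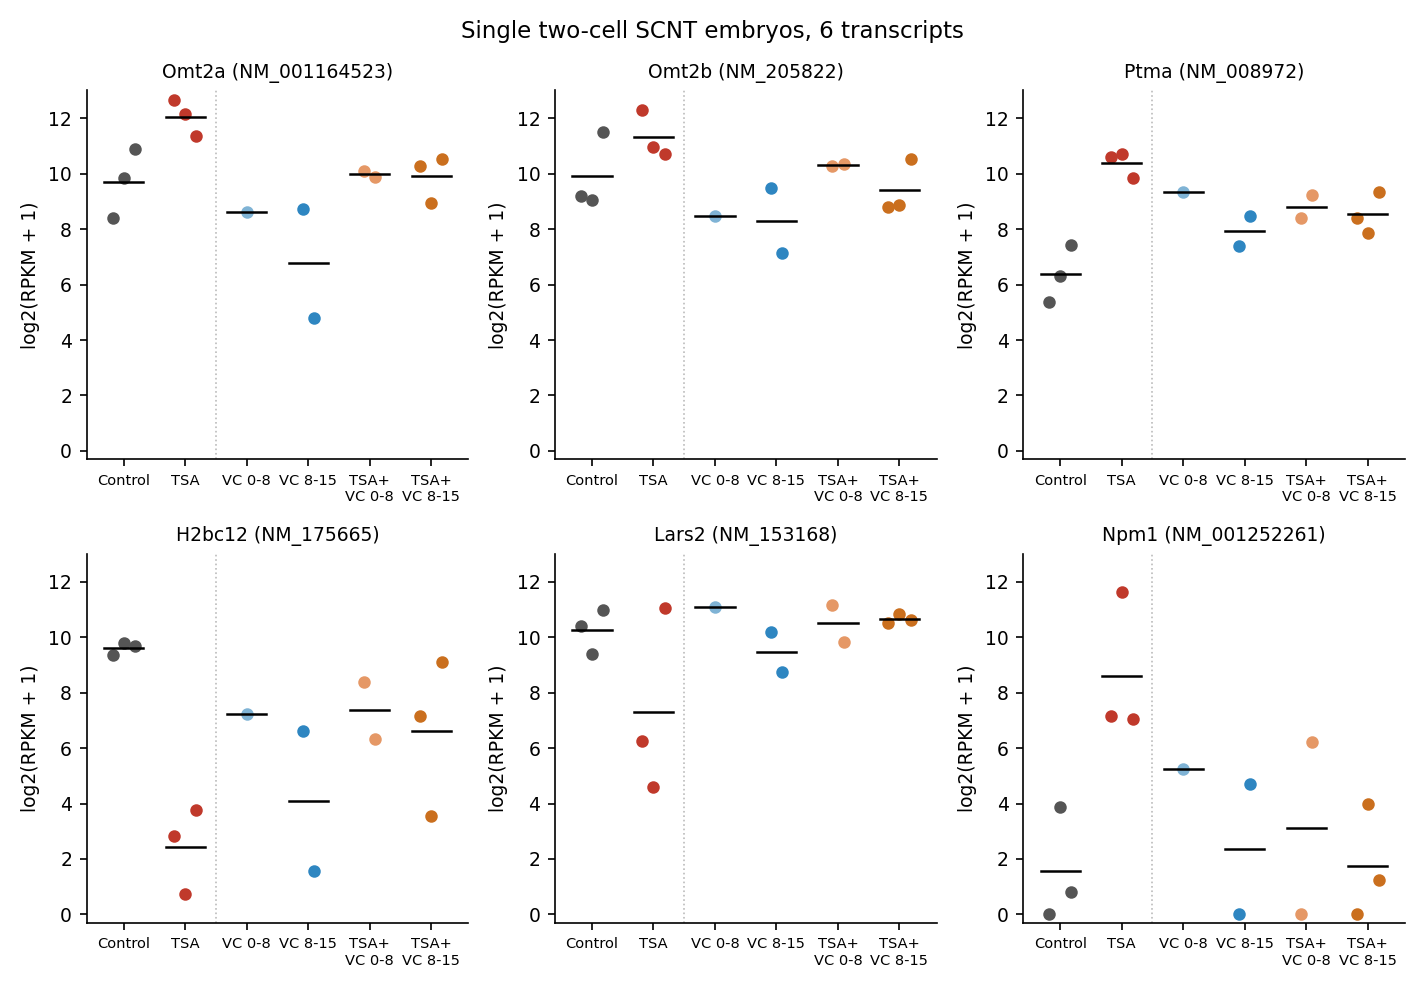
Each panel shows 1 transcript as log2(RPKM+1) on the y axis, with 1 point per embryo and a bar at the group mean, for control, TSA and the 4 groups given VC (x axis, VC alone or with TSA at 0-8 h or 8-15 h, right of the dotted line). Omt2a, Ptma and Npm1 are higher and H2bc12 lower in all 3 TSA embryos than in all 3 controls, while Lars2 and Omt2b overlap.

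H2bc12 (NM_175665, older name Hist1h2bk) showed the largest difference past the test. Control embryos held 655, 885 and 826 RPKM, a narrow range, and TSA embryos 6.08, 0.672 and 12.5 RPKM, with means of 789 ± 120 and 6.42 ± 5.92 RPKM (SD, n = 3). All 3 TSA embryos were far below all 3 controls. H2bc12 fell by 7.17 on the log2 scale (SE 1.51, limma adjusted p = 0.00304), and within the 3 pools the difference was -6.53, -9.05 and -5.94. Leaving out any 1 embryo gave a difference of -7.83 to -6.32, but the limma adjusted p was 0.198, 0.628 and 0.222 without control replicate 1, 2 or 3, and 0.349 with limma-voom on recovered reads. H2B genes are nearly identical in their coding part: 73.7% of the H2bc12 windows occur at more than 1 place in mm9, up to 15 places, and reads may have been placed on other copies.

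H2bc12 was the only one of 12 tested transcripts of replication-dependent histones, which package newly made DNA, to pass. These 12 came from 8 genes, 2 were above 0 and 10 below, and the median was -0.20. Without TSA replicate 1 that median was -2.95 and across the embryos left out it reached 1.26. Several entries nearly repeat each other: H2ac18 and H2ac19 were both at 0.54, and their duplicate entries at -0.20 and -0.21. H2ac23, H2ac24 and their duplicate entries were at -0.20 to -0.10. The split and the median therefore count some values more than once. H2ac11, an H2A gene, was at 242, 0 and 14.5 RPKM in controls and at 1.40, 0 and 0 RPKM in TSA embryos (-3.54, limma adjusted p = 0.93). H2ac22, another H2A gene, was at 290.4, 1.11 and 18.9 RPKM in controls and at 0, 0 and 10.8 RPKM in TSA embryos (-3.34, limma adjusted p = 0.93). Both rested on control replicate 1, unlike H2bc12, which was high in all 3 controls.

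Lars2 (NM_153168) was at 1337, 674 and 2037 RPKM in controls and at 74.8, 23.1 and 2114 RPKM in TSA embryos. The groups overlapped: TSA replicates 1 and 2 were below every control, and TSA replicate 3 was the highest of the 6. Lars2 fell by 2.96 on the log2 scale (SE 0.67, limma adjusted p = 0.0111), with within-pool differences of -4.14, -4.81 and 0.05. This SE reflects the shared variance prior and is small for a gene whose TSA embryos spanned 23.1 to 2114 RPKM. The call was lost under most alternatives, among them median-ratio scaling (limma adjusted p = 0.776) and leaving out control replicate 1, 2 or 3 (0.227, 0.912 and 0.408). The difference was -1.61 without TSA replicate 2 (limma adjusted p = 0.538), -4.84 without TSA replicate 3 (0.000102) and -0.01 with limma-voom on recovered reads and a replicate block (0.998).

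The histone deacetylases themselves, the targets of TSA, showed no difference beyond the spread. Of 11 such genes, 3 were tested, and 2 were above 0 and 1 below. Hdac1 was at 109, 192 and 0.187 RPKM in controls and at 216, 14.3 and 100.1 RPKM in TSA embryos (1.25, SE 1.72, limma adjusted p = 0.961). Hdac2 was at 1.84, 1.16 and 55.2 RPKM in controls and at 0, 44.6 and 145 RPKM in TSA embryos (1.42, SE 2.46, limma adjusted p = 0.976). Of their mRNA windows in mm9, 54.2% for Hdac1 and 0% for Hdac2 occur at more than 1 place. Single embryos ranged from near 0 to above 100 RPKM within a group, and at this spread a moderate difference could not have been detected. Of 11 tested histone acetyltransferase transcripts, 8 were above 0 and 3 below, with a median of 0.16 and 0 at an unadjusted p under 0.05 in either direction. Kat7, the catalytic subunit of the HBO1 complex, was at 0.216, 1.05 and 0.111 RPKM in controls and at 34.2, 1.46 and 102 RPKM in TSA embryos (3.89, limma adjusted p = 0.93).

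Beyond the 4 calls, the transcripts with the smallest p among those whose groups do not overlap are described, up to 12 in each direction, none of which passed the adjusted threshold other than Omt2a, Ptma and H2bc12. Among those higher with TSA, Hpf1, Fbxo15 and Ei24 were measured in every embryo. Hpf1, the partner that directs PARP1 to serine residues, was at 173, 152 and 118 RPKM in controls and at 812, 1104 and 777 RPKM in TSA embryos. Its means were 148 ± 27.5 and 898 ± 179 RPKM (SD, n = 3), the difference was 2.59 (SE 0.74, limma adjusted p = 0.171), and the pools gave 2.22, 2.85 and 2.70. Fbxo15, an F-box protein gene known as a target of the pluripotency factor Oct4, was at 26.5, 13.7 and 4.22 RPKM in controls and at 778, 635 and 182 RPKM in TSA embryos (5.13, SE 1.43, limma adjusted p = 0.16). In one fit of all 14 embryos its adjusted p was 0.0167. Ei24, which encodes a membrane protein of the endoplasmic reticulum induced by p53, was at 31.0, 33.3 and 77.5 RPKM in controls and at 507, 445 and 536 RPKM in TSA embryos (3.49, SE 1.10, limma adjusted p = 0.278).

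Several of the others were near the floor in controls. Pdcd2, a gene named for programmed cell death, was at 30.0, 0.39 and 0.394 RPKM in controls and at 451, 363 and 322 RPKM in TSA embryos (6.59, limma adjusted p = 0.159). Pard3 (NM_001013581), a cell polarity protein, was at 1.59, 1.05 and 0.848 RPKM in controls and at 343, 374 and 137 RPKM in TSA embryos (6.93, limma adjusted p = 0.234). When the entries of each gene were added, Pard3 passed (4.31, limma adjusted p = 0.03). Larp1b, an RNA-binding protein of the La family, was at 7.89, 2.22 and 49.1 RPKM in controls and at 851, 566 and 162 RPKM in TSA embryos (5.25, limma adjusted p = 0.165). Ppp1r14b, an inhibitor of protein phosphatase 1, was at 41.5, 0.159 and 1.04 RPKM in controls and at 322, 269 and 329 RPKM in TSA embryos (6.04, limma adjusted p = 0.234), and 54.4% of its windows are found at more than 1 place in mm9. Timm23, a channel of mitochondrial protein import, was at 19.5, 1.76 and 101 RPKM in controls and at 325, 752 and 212 RPKM in TSA embryos (4.38, limma adjusted p = 0.28), with 95.0% of its windows at more than 1 place.

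Cnbp, a zinc finger protein that binds nucleic acids, differed in 1 embryo from the rest of its group. NM_001109745 was at 1.58, 0 and 3.77 RPKM in controls and at 2054, 5.47 and 2059 RPKM in TSA embryos (7.03, SE 2.03, limma adjusted p = 0.177). TSA replicates 1 and 3 were almost equal and TSA replicate 2 was just above the controls, and without TSA replicate 2 the difference was 9.80 (limma adjusted p = 0.00266). Added over its 3 entries, Cnbp was at 237, 7.82 and 68.3 RPKM in controls and at 2489, 147 and 2444 RPKM in TSA embryos. The summed values passed (4.20, limma adjusted p = 0.03), although the lowest TSA embryo was then below the highest control.

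Among the transcripts lower with TSA, several were at 100 RPKM or more in every control and near the floor in every TSA embryo. Fbxl5 (NM_178729), an F-box protein that senses iron, was at 463, 191 and 145 RPKM in controls and at 0.553, 0.963 and 0.498 RPKM in TSA embryos (-7.15, SE 2.20, limma adjusted p = 0.234). Its 2 entries added gave 656, 271 and 332 RPKM in controls and 29.7, 1.37 and 12.7 RPKM in TSA embryos, and these groups did not overlap either. Tcf25 (NM_001037878), which encodes a factor of ribosome quality control, was at 236, 954 and 148 RPKM in controls and at 0.626, 0.968 and 0.322 RPKM in TSA embryos (-7.64, SE 2.11, limma adjusted p = 0.159). A second entry, NM_025804, was at 31.0, 383 and 0.388 RPKM in controls and at 0.997, 0.434 and 155 RPKM in TSA embryos (-1.75, limma adjusted p = 0.961). The remaining entry, NM_001037877, was below the filter, at 55.2, 803 and 0 RPKM in controls and at 0.263, 0.814 and 0 RPKM in TSA embryos. The 3 entries added gave 323, 2139 and 149 RPKM in controls and 1.89, 2.22 and 156 RPKM in TSA embryos, and these groups overlapped, because TSA replicate 3 exceeded control replicate 3. Tcf25 NM_001037878 passed without TSA replicate 1 (limma adjusted p = 0.0459) and without TSA replicate 3 (0.0475).

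Pdhb, the beta subunit of pyruvate dehydrogenase, was at 425, 323 and 208 RPKM in controls and at 7.58, 11.2 and 0.802 RPKM in TSA embryos (-5.74, limma adjusted p = 0.234). Rab38, a small GTPase of membrane traffic, was at 243, 198 and 192 RPKM in controls and at 5.88, 2.19 and 3.34 RPKM in TSA embryos (-5.53, limma adjusted p = 0.522). Snx9, a sorting nexin of endocytosis, was at 185, 257 and 183 RPKM in controls and at 11.2, 1.01 and 0.585 RPKM in TSA embryos (-5.93, limma adjusted p = 0.448). The groups lay far apart in these 3 genes, and the SEs reflect the shared variance prior: for Rab38 the SE was 1.93 while its own within-group SD was 0.41. Rab7, the GTPase of late endosomes, was at 373, 596 and 309 RPKM in controls and at 1.59, 19.3 and 307 RPKM in TSA embryos (-4.02, limma adjusted p = 0.28), where TSA replicate 3 equalled the lowest control. Without that embryo Rab7 passed (-5.82, limma adjusted p = 0.0475). Of the mRNA windows in mm9, 61.7% for Snx9, 34.3% for Rab7, 29.8% for Pdhb and 0% for Rab38 occur at more than 1 place.

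The rest of the 12 were more variable among controls. Prex2, an exchange factor for Rac, was at 604, 1964 and 64.2 RPKM in controls and at 42.3, 19.2 and 11.5 RPKM in TSA embryos (-4.26, limma adjusted p = 0.234). Cops9, a subunit of the COP9 signalosome, was at 56.0, 1188 and 199.8 RPKM in controls and at 0.756, 44.4 and 0.388 RPKM in TSA embryos (-5.64, limma adjusted p = 0.413). Aebp2 (NM_001005605), an accessory subunit of Polycomb repressive complex PRC2, was at 108, 732 and 43.5 RPKM in controls and at 1.51, 0.78 and 0.13 RPKM in TSA embryos (-6.47, limma adjusted p = 0.554). Its entries added gave 110, 794 and 50.8 RPKM in controls and 145, 9.39 and 45.0 RPKM in TSA embryos, and these overlapped. NM_001033491, for which no symbol was found, was at 905, 1334 and 789 RPKM in controls and at 39.9, 388 and 509.7 RPKM in TSA embryos (-2.29, SE 0.67, limma adjusted p = 0.182). It passed without TSA replicate 2 (limma adjusted p = 0.0441) and without TSA replicate 3 (0.0475).

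**Figure D3:**
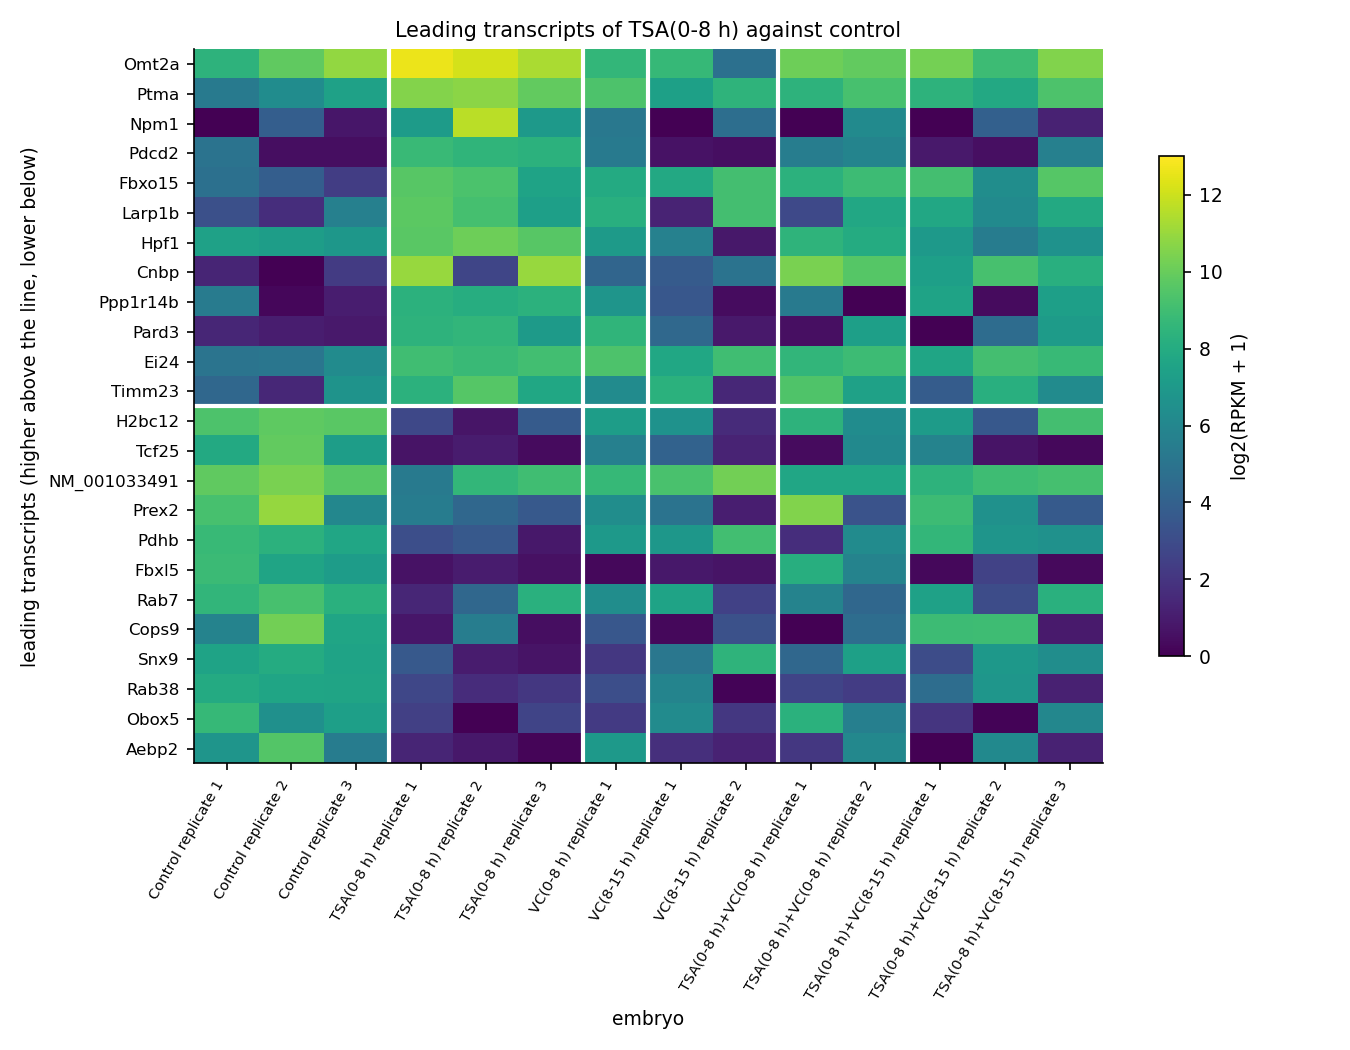
Colour gives log2(RPKM+1) from 0 to 13 for the 12 leading transcripts higher with TSA (above the white line) and the 12 lower (below it), ordered by p, in the 14 embryos (x axis, white lines between groups). The first 6 columns, 3 control and 3 TSA(0-8 h) embryos, chose the transcripts, and in the 8 embryos given VC Fbxo15 and Ei24 are at 81.2 RPKM or more in each, while Cnbp is higher in the 5 that also received TSA.

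Gene functions were then described by lists, each by its counts and median beside those of all transcripts tested, where 42.9% were above 0 and the median was -0.35. Of all transcripts, 2.65% were higher and 3.11% lower at an unadjusted p under 0.05 (limma). Groups did not overlap in 3.97% (higher) and 6.92% (lower). A count near these shares is not a result about a list. Maternal mRNA storage and decay, the machinery that keeps and later removes the egg's mRNA, was lower in most of its members. Of 25 transcripts tested, 7 were above 0 and 18 below, 5 were lower and 0 higher at an unadjusted p under 0.05, none passed the adjusted threshold, and the median was -1.19. Btg4, which brings the CCR4-NOT deadenylase to maternal mRNA, was at 579, 519.6 and 1338 RPKM in controls and at 195, 186 and 198 RPKM in TSA embryos, with no overlap (-1.93, SE 0.72, limma adjusted p = 0.634). Cnot8, a deadenylase of that complex, was at 130.1, 559 and 192 RPKM in controls and at 28.8, 23.6 and 58.0 RPKM in TSA embryos (-2.78, limma adjusted p = 0.86). Eif4e1b (NM_001039683), the cap-binding protein of oocytes, was at 1614, 1422 and 1074 RPKM in controls and at 1065, 274 and 703 RPKM in TSA embryos (-1.19, limma adjusted p = 0.744). Its other tested entry, NM_001033269, overlapped between groups (-0.58, limma adjusted p = 0.958). Pum2 (NM_001160220), a repressor that binds mRNA, was at 783, 486 and 409 RPKM in controls and at 1.49, 454 and 98.5 RPKM in TSA embryos (-3.48, limma adjusted p = 0.234), and passed without TSA replicate 2 (-5.10, limma adjusted p = 0.0331). Its other tested entries, NM_001160221 and NM_030723, stood at 1.52 and -2.10 (limma adjusted p = 0.93 for each). The list median was -0.23 without TSA replicate 2 and -1.95 without TSA replicate 3.

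Genes switched on at the two-cell stage went both ways. Of 16 transcripts tested, 9 were above 0 and 7 below, 2 were higher and 1 lower at an unadjusted p under 0.05, and the median was 0.49, with 0.005 without control replicate 2 and 0.86 without control replicate 1. Zfp352, a zinc finger gene of two-cell embryos, was at 0.326, 2.83 and 125 RPKM in controls and at 135, 155 and 225 RPKM in TSA embryos (4.29, limma adjusted p = 0.837). Sp110 (NM_030194), a nuclear body protein, was at 179, 18.7 and 108 RPKM in controls and at 698, 417 and 184 RPKM in TSA embryos (2.37, limma adjusted p = 0.86). Its other tested entry, NM_175397, went the other way, with overlapping groups (-2.67, limma adjusted p = 0.951). Obox5, an oocyte homeobox gene and 1 of the 12 leading lower transcripts, was at 419, 91.7 and 161 RPKM in controls and at 4.54, 0 and 5.38 RPKM in TSA embryos (-5.82, limma adjusted p = 0.554). Of its mRNA windows in mm9, 18.5% occur at more than 1 place. Its relative Obox3 was at 0.23, 0.727 and 61.4 RPKM in controls and at 36.3, 57.9 and 268 RPKM in TSA embryos (4.04, limma adjusted p = 0.892), so that these 2 homeobox genes stood on opposite sides of 0. Among 9 transcripts of pluripotency factors, 3 were above 0 and 6 below, 1 was higher and 1 lower at an unadjusted p under 0.05, and the median was -0.60, with -1.48 without control replicate 2 and 0.25 without TSA replicate 2. Dppa2, which binds chromatin of early embryonic genes, was at 52.0, 12.1 and 32.6 RPKM in controls and at 171, 241 and 196 RPKM in TSA embryos (2.82, limma adjusted p = 0.86). Lin28a, an RNA-binding protein that blocks let-7 maturation, was at 185, 168 and 62.4 RPKM in controls and at 37.1, 1.80 and 6.65 RPKM in TSA embryos (-3.75, limma adjusted p = 0.86).

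The lists for H3K9 and DNA methylation were mostly below 0, as were most transcripts. Each pooled genes that add the mark, remove it or act with it in other ways. Their medians therefore have no direction for the mark. Of 11 transcripts in the H3K9 methylation list, 4 were above 0 and 7 below (median -0.72), and 0 reached an unadjusted p under 0.05. Kdm3a, an H3K9 demethylase, was at 50.8, 113 and 59.3 RPKM in controls and at 1.43, 27.6 and 9.69 RPKM in TSA embryos, with no overlap (-2.97, limma adjusted p = 0.93). The list median was 0.14 without TSA replicate 3. Of 6 transcripts in the DNA methylation list, 2 were above 0 and 4 below (median -0.53), and 0 were higher and 1 lower at an unadjusted p under 0.05. Uhrf1, which brings Dnmt1 to newly copied DNA, was at 36.5, 192 and 89.5 RPKM in controls and at 1.76, 0.215 and 5.77 RPKM in TSA embryos, with no overlap (-4.94, limma adjusted p = 0.86).

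Among the genes of protein synthesis, those of the cytoplasmic ribosome were above 0 in most members. Of 50 transcripts of cytoplasmic ribosomal proteins, 34 were above 0 and 16 below, 4 were higher and 1 lower at an unadjusted p under 0.05, none passed the adjusted threshold, and the median was 1.21, staying between 0.50 and 1.39 when any 1 embryo was left out. Ribosomal protein genes have many processed copies, so that these levels are uncertain. Rpl23 was at 1.04, 2.47 and 0.416 RPKM in controls and at 104, 102 and 116 RPKM in TSA embryos (5.65, limma adjusted p = 0.788). Rps27l, a p53-induced relative of Rps27, went the other way, at 512, 362 and 23.3 RPKM in controls and at 12.8, 0 and 0 RPKM in TSA embryos (-6.11, limma adjusted p = 0.558). Of 10 mitochondrial ribosomal protein transcripts, 3 were above 0 and 7 below (median -1.03, and -2.09 to 0.15 with 1 embryo left out), and 0 were higher and 1 lower at an unadjusted p under 0.05. Of 44 translation initiation factor transcripts, 20 were above 0 and 24 below (median -0.15, and 0.36 with median-ratio scaling), and 1 was higher and 3 lower at an unadjusted p under 0.05. The 3 lower were Eif5a NM_001166595 and NM_001166596 and Eif4e1b NM_001039683, and the last is also counted in the maternal mRNA list. Eif5a NM_001166595, whose product eases peptide bond formation, was at 72.5, 596 and 910.3 RPKM in controls and at 108, 77.6 and 0 RPKM in TSA embryos (-4.06, limma adjusted p = 0.447). Its other tested entries, NM_001166589 and NM_001166596, differed by -1.88 and -1.65 (limma adjusted p = 0.93 and 0.747).

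Genes of protein turnover and stress followed. Of 20 proteasome subunit transcripts, 13 were above 0 and 7 below (median 0.46, and -0.55 without TSA replicate 2), and 0 reached an unadjusted p under 0.05 in either direction. Of 24 F-box protein transcripts, which recognise substrates of SCF ubiquitin ligases, 9 were above 0 and 15 below (median -0.71), and 1 was higher and 3 lower at an unadjusted p under 0.05. The 3 lower were Fbxo8 and both tested entries of Fbxl5, so that Fbxl5 is counted more than once. Beside Fbxo15 and Fbxl5, Fbxo8 was at 135, 273 and 63.8 RPKM in controls and at 1.31, 0.399 and 2.32 RPKM in TSA embryos, with no overlap (-5.93, limma adjusted p = 0.658). Of 36 heat shock protein transcripts, 18 were above 0 and 18 below (median -0.02), and 0 were higher and 3 lower at an unadjusted p under 0.05. Hspa5 (NM_001163434), the chaperone of the endoplasmic reticulum, was at 275, 84.8 and 462 RPKM in controls and at 4.81, 12.1 and 2.78 RPKM in TSA embryos, with no overlap (-5.07, limma adjusted p = 0.554). The groups did overlap in its other tested entry, NM_022310 (-1.12, limma adjusted p = 0.938).

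Apoptosis genes, cytoskeletal genes and pyruvate metabolism had the lowest medians of the lists described. Of 14 apoptosis transcripts from 12 genes, 2 were above 0 and 12 below, 1 was lower at an unadjusted p under 0.05, and the median was -2.54, staying between -2.70 and -1.95 when any 1 embryo was left out. Birc3, an inhibitor of apoptosis, was at 41.4, 120.2 and 35.2 RPKM in controls and at 0.235, 0.0911 and 2.09 RPKM in TSA embryos (-5.15, limma adjusted p = 0.86). Of 11 tubulin and actin transcripts, 1 was above 0 and 10 below (median -1.71), with 0 at an unadjusted p under 0.05. Of 5 pyruvate and lactate transcripts, 1 was above 0 and 4 below (median -2.42, and -4.07 to -1.30 with 1 embryo left out), and 0 were higher and 2 lower at an unadjusted p under 0.05. Pkm (NM_001253883), pyruvate kinase, was at 145, 404 and 133 RPKM in controls and at 3.54, 1.63 and 242 RPKM in TSA embryos (-3.81, limma adjusted p = 0.86). The other 13 lists with a transcript tested had medians of -2.02 to 0.42, with 7 transcripts higher and 5 lower at an unadjusted p under 0.05 and 0 past the adjusted threshold.

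**Figure D4:**
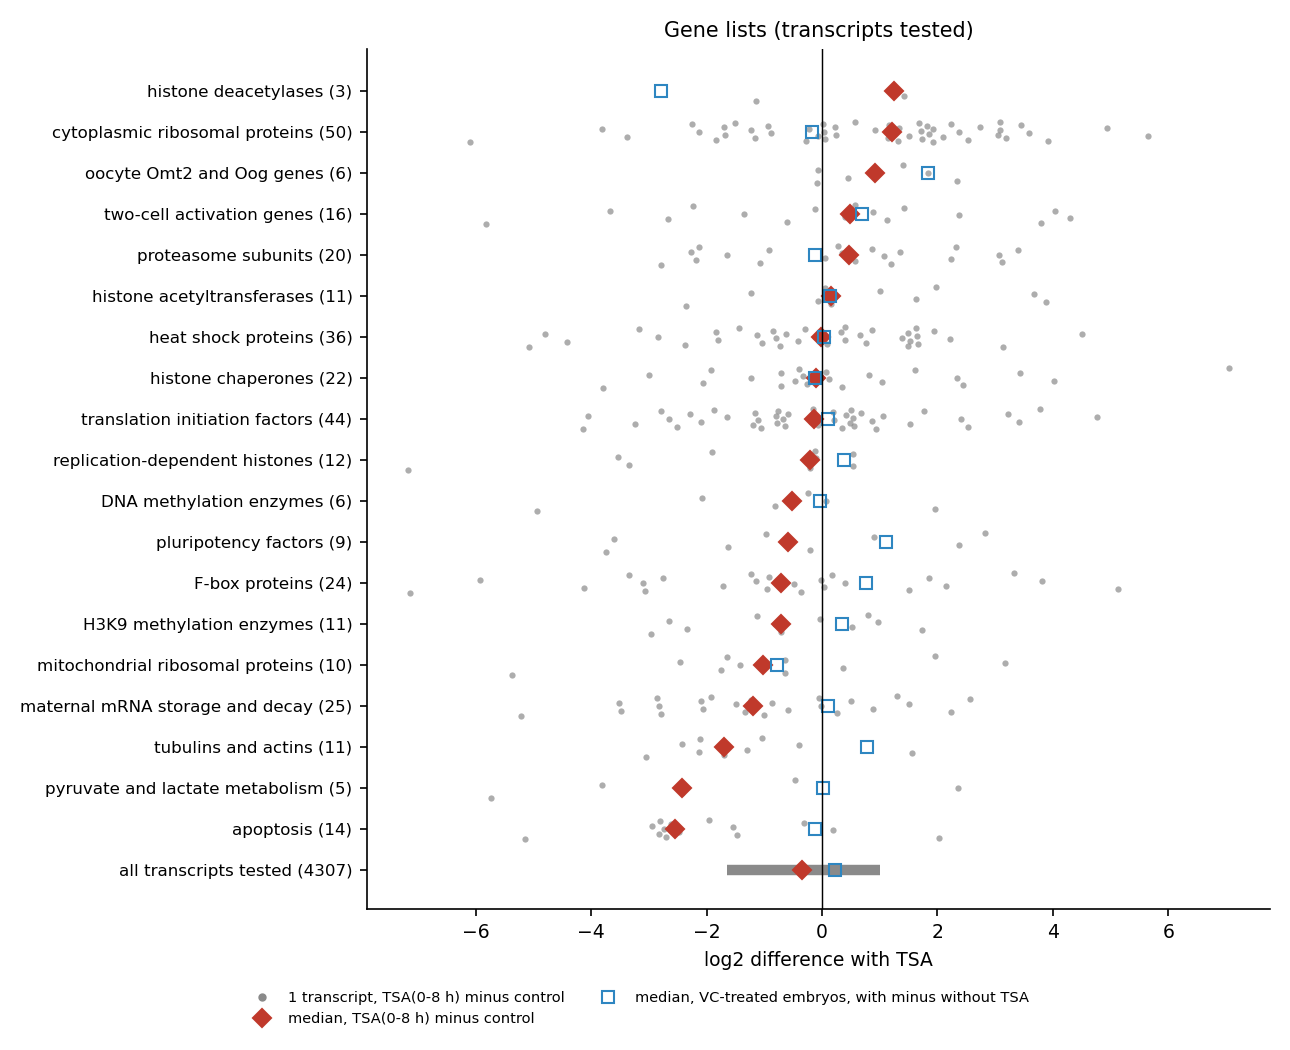
Gene lists are on the y axis with the number of transcripts tested, and the log2 difference with TSA on the x axis. Grey points are transcripts (for all 4307, the grey bar spans the middle 50%), red diamonds are medians of TSA(0-8 h) minus control, from -2.54 for apoptosis to 1.25 for histone deacetylases, and open blue squares are medians in embryos given VC, from -2.79 for histone deacetylases to 1.83 for the Omt2 and Oog genes.

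The 8 embryos given VC allowed the same transcripts to be looked at in embryos that had no part in the comparison. Here 5 embryos given TSA and VC were set against 3 given VC alone, with the VC window (0-8 h or 8-15 h) as a term. At an adjusted p under 0.05 (limma), 0 transcripts rose and 0 fell, while 106 were higher (2.46%) and 70 lower (1.63%) at an unadjusted p under 0.05. With a pseudocount of 0.1 RPKM 1 transcript, Cnbp NM_001109745, was higher. Across all 4307 transcripts, the log2 differences with TSA in embryos without and with VC had almost no correlation (Pearson r = 0.021, Spearman r = 0.0045). Of the 12 leading transcripts higher with TSA alone, 9 were above 0 in VC embryos, where 57.0% of all transcripts were, and 3 were higher at an unadjusted p under 0.05. These 3 were Cnbp, Omt2a and Hpf1.

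Cnbp NM_001109745 showed the clearest difference of the 3. It was at 18.1, 12.1 and 29.9 RPKM in the VC embryos, at 1320 and 748 RPKM in TSA(0-8 h) plus VC(0-8 h) embryos and at 161, 597 and 293 RPKM in TSA(0-8 h) plus VC(8-15 h) embryos. Every embryo given TSA and VC was above every embryo given VC alone, with a log2 difference of 4.56 (SE 0.73, limma adjusted p = 0.0571). Leaving out any 1 embryo gave 3.92 to 5.09, and without VC(8-15 h) replicate 2 the limma adjusted p was 0.0277. Omt2a NM_001164523 was at 393, 420 and 26.9 RPKM with VC alone and at 1106, 938, 1226, 488 and 1485 RPKM with both, again with no overlap (2.51, SE 0.73, limma adjusted p = 0.937). Without VC(8-15 h) replicate 2, the embryo at 26.9 RPKM, the Omt2a difference was 1.28. Hpf1 was at 133, 52.3 and 0.772 RPKM with VC alone and at 355, 258, 127, 43.3 and 97.8 RPKM with both, and these groups overlapped (2.40, SE 1.08, limma adjusted p = 0.937), with a difference of 0.89 without VC(8-15 h) replicate 2. Omt2b was at 357, 708 and 139 RPKM with VC alone and at 1225, 1308, 446, 462 and 1481 RPKM with both (1.36, SE 0.57, limma adjusted p = 0.937), a difference of 0.82 without VC(8-15 h) replicate 2.

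Ptma and H2bc12 did not show their difference in VC embryos. Ptma was at 652, 165 and 356 RPKM with VC alone and at 337, 594, 340, 233 and 652 RPKM with both (0.20, SE 0.55). H2bc12 was at 148, 98.2 and 2.00 RPKM with VC alone and at 337, 78.7, 140, 10.8 and 551 RPKM with both (1.65, SE 1.33), and without VC(8-15 h) replicate 2 this difference was 0.05. The 8 VC embryos lay between 165 and 652 RPKM for Ptma, beside 39.9 to 172 RPKM in controls, and between 2.00 and 551 RPKM for H2bc12, beside 655 to 885 RPKM in controls, whether TSA was present or not. Fbxo15 was at 248, 226 and 560 RPKM with VC alone and at 327, 483, 545, 81.2 and 747 RPKM with both (0.15), and Ei24 at 668, 212 and 511 RPKM with VC alone and at 374, 486, 199, 553 and 440 RPKM with both (-0.14). For both genes all 8 VC embryos were above all 3 controls. However, Ptma, H2bc12, Fbxo15 and Ei24 were chosen because these controls lay apart from the TSA embryos. Setting VC embryos beside the same controls is therefore not an independent comparison, and VC against control was not tested. Lars2 was at 2167, 1172 and 430 RPKM with VC alone and at 2303, 913, 1452, 1811 and 1589 RPKM with both (0.55, and -0.03 without VC(8-15 h) replicate 2).

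The difference between the TSA effect without VC and with VC was tested in one fit of the 14 embryos. At an adjusted p under 0.05 (limma), 0 transcripts had a higher effect without VC and 0 a lower one, while 82 (1.90%) and 177 (4.11%) passed an unadjusted p under 0.05. For H2bc12 the effect without VC was lower by 8.83 (difference -8.83, SE 1.90, limma adjusted p = 0.22). That difference passed with a replicate block (-8.85, limma adjusted p = 0.0479) and without TSA(0-8 h) plus VC(8-15 h) replicate 2 (-9.64, limma adjusted p = 0.0353). The block followed replicate numbers, although VC(0-8 h) replicate 1 was sequenced in the pool of the replicate 2 embryos. For Ptma it was higher by 3.82 (SE 0.92, limma adjusted p = 0.389). For Omt2a and Omt2b the effects differed by -0.18 (SE 0.90) and 0.05 (SE 0.81). Of the 12 leading lower transcripts, 4 were below 0 in VC embryos, where 43.0% of all transcripts were, and 0 were lower at an unadjusted p under 0.05, with a median of 0.51, beside 0.23 over all transcripts. For 11 of these 12 the difference of the effects had an unadjusted p under 0.05, but the controls and TSA embryos that chose them enter this test.

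**Figure D5:**
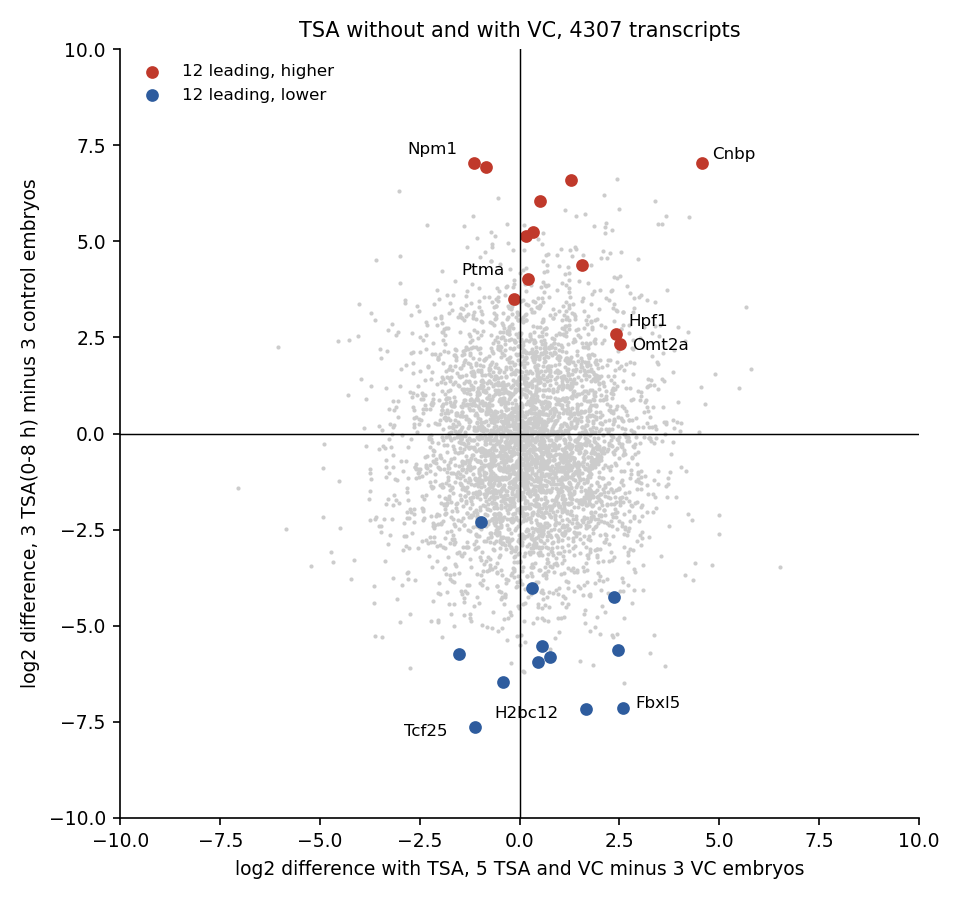
Each point is 1 of 4307 transcripts, with the log2 difference with TSA among embryos given VC (5 TSA and VC minus 3 VC embryos) on the x axis and among embryos without VC (3 TSA(0-8 h) minus 3 control embryos) on the y axis. The 12 leading higher transcripts (red) and 12 leading lower (blue) were chosen on the y axis, and Cnbp, Hpf1 and Omt2a are also well above 0 on the x axis, while the blue points spread from -1.52 to 2.59 there.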

How the data were processed

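RNA from individual two-cell SCNT embryos was amplified, sequenced (single end, 50 bp) and, per the authors, quality-filtered and stripped of adaptors with cutadapt. The submitters' processing notes name TopHat2 and mm9. The authors counted reads on exons of UCSC gene models and deposited them as RPKM, that is scaled by transcript length and by the total count, with 1 file per embryo. The counts the authors tested were not used here.

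Groups, replicate numbers and sequencing pools were taken from the labels and library identifiers. Transcripts with at least 1 RPKM in at least 3 of the 6 embryos were tested with limma 3.58.1 in R 4.3.3 (lmFit, eBayes with a trend) on log2(RPKM+1), with Benjamini-Hochberg adjustment over all of them. Fold changes are on that scale, which understates changes of low transcripts. RPKM values are multiples of what 1 read is worth, from which reads per entry were recovered. Whole reads and a whole transcript length (tolerance 0.05 bases) were found for all 14532 entries above 0 in 2 or more embryos. Reads counted were 5423162, 6864593 and 13589389 in controls and 3021540, 7813871 and 11753807 in TSA(0-8 h) embryos. The fits and the recovery were tested on simulated data. Numbers detected were compared by an exact permutation test. TSA among VC-treated embryos, and the difference of both TSA effects, were fitted with the VC window as a term. Alternatives were the pseudocount, filters, scalings, a replicate block, no trend, entries summed per gene, 1 fit of all embryos, limma-voom on recovered reads and leaving out each embryo. Limma-voom with the block was chosen after seeing the data.

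Named were transcripts past the threshold, the 12 of smallest p in each direction with groups apart, up to 4 of smallest p per list described, Ptma, Omt2a, Omt2b, H2bc12, Fbxo15, Tcf25, Fbxl5, Hdac1 and Hdac2. Other tested entries of these genes are given alone or summed. The values of 1 named gene of the apoptosis list are not reported here. The comparison, its members and the lists were chosen with earlier results of these data known. Windows of 50 bases of each mRNA were counted on both strands of mm9. Motifs were searched in RefSeq promoters (GRCm38.p6). Scripts ran under Python 3.11.15 with scipy 1.17.1, pandas 2.3.3, numpy 2.4.6 and matplotlib 3.10.9.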

Additional observations from a re-analysis of the deposited data

How the results depend on the processing

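For TSA(0-8 h) against control (2 higher and 2 lower), the limma counts of higher and lower transcripts were 2 and 1 with a pseudocount of 0.1 RPKM, median-ratio scaling, 1 RPKM in all 3 embryos of either group, a minimum of 5 RPKM or one fit of all 14 embryos, 0 and 0 with no filter on low values or without a trend, 4 and 1 with entries summed per gene, and 1 and 3 with limma-voom on recovered reads. With 1 embryo left out they were 2 to 7 higher and 0 to 6 lower, with 7 and 6 without TSA replicate 3 and 0 lower without control replicate 2. The causes were not tested. Omt2a, Ptma and H2bc12 kept their direction throughout, with log2 differences of 1.30 to 2.92, 3.48 to 4.56 and -7.83 to -6.32.

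Same-numbered control and TSA embryos shared a sequencing pool, which the main fit left out. They deviated together only weakly (r of 0.047, 0.039 and 0.042 for replicates 1, 2 and 3), and each embryo correlated best with its own number. With the replicate block the counts were 3 higher and 2 lower, Omt2b being added (limma adjusted p = 0.0422), and the difference between TSA effects had 1 lower transcript, H2bc12 (-8.85, limma adjusted p = 0.0479). With limma-voom and the block (chosen after seeing the data) 5 were higher and 11 lower, and Omt2b (-0.14) and Oog3 (-0.17) changed sign. In limma-voom without the block Hdac6 changed sign (0.64).

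In VC-treated embryos (0 higher, 0 lower), 1 transcript was higher with a pseudocount of 0.1 RPKM, and 0 to 1 with 1 embryo left out. For the difference between TSA effects, 0 to 1 were lower with 1 embryo left out, 1 without control replicate 2 (Larp4, named after its values were seen), 1 without TSA replicate 3 (Lars2) and 1 without TSA(0-8 h) plus VC(8-15 h) replicate 2 (H2bc12). The mean number of transcripts detected was lower by 1317 to 507 with 1 embryo left out (difference -1317 to -507).

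List medians moved to 0.10 for histone chaperones, -1.44 for DNA methylation enzymes and -1.42 for F-box proteins with a pseudocount of 0.1 RPKM, and to 0.099 for histone chaperones and 0.36 for translation initiation factors with median-ratio scaling. With 1 embryo left out they ranged from -0.44 to 0.12 for histone chaperones, -2.09 to 0.15 for mitochondrial ribosomal proteins, -2.70 to -1.95 for apoptosis, -4.07 to -1.30 for pyruvate and lactate metabolism, -0.68 to 0.13 for translation initiation factors, -1.06 to 0.78 for histone deacetylases, 0.11 to 1.37 for histone acetyltransferases, -2.95 to 1.26 for replication-dependent histones, -1.59 to 0.087 for DNA methylation enzymes, -1.95 to -0.23 for maternal mRNA storage and decay, -0.55 to 1.35 for proteasome subunits, -1.48 to 0.25 for pluripotency factors, 0.005 to 0.86 for two-cell activation genes, -0.63 to -0.19 for all transcripts tested and -0.85 to 0.14 for H3K9 methylation enzymes. Differences that changed sign with 1 embryo left out ranged from -2.08 to 0.40 for Dnmt3a, -5.99 to 0.14 for Dppa4, -1.06 to 2.61 for Hdac1, -0.054 to 3.54 for Hdac2, -2.68 to 0.37 for Hdac6, -2.61 to 0.77 for Mrps26, -0.18 to 0.79 for Oog3 and -3.93 to 0.20 for Tcf25 NM_025804. With 3 embryos a group and a median SD of 2.33, most differences of single transcripts were within the spread.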
